A study of Mus musculus with 5 samples.

Results

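Monocytes of the mouse liver were followed here in 5 single-cell RNA libraries, as the 149 barcodes that carried a monocyte gene set. They were chosen from 104143 barcodes with at least 1000 unique molecular identifiers (UMIs, each counting 1 captured transcript), at least 500 genes and under 30% mitochondrial UMIs. Of these barcodes 67862 were in the adult control. There the droplets taken as free RNA had a median of 1330 UMIs, so many of these barcodes need not be cells. A member had a UMI of at least 3 of the 6 genes Ms4a6c, Csf1r, F13a1, Ccr2, Chil3 and Clec4a3, and no UMI of Siglech, a gene of plasmacytoid dendritic cells. All libraries came from C57BL/6J mice with no allele or agent named. They are P14 (pups at postnatal day 14), the adult control, and 3 libraries of adults taken after partial hepatectomy (PHx, removal of most of the liver, done at 8 weeks of age), at 24 h, 48 h or 96 h. Runs of 5 values in a row follow the order adult control, 24 h, 48 h, 96 h, P14, and 4 values leave out P14, unless said otherwise. There was 1 library per group, so no difference below has a replicate check, no p-value is given, and every 95% interval covers counting error only. The protocol names the control library among the operated mice, whereas its title and source call it the adult control, and it was used as unoperated. The age listed for it, 8 weeks, is the age at surgery of the operated libraries too, so age does not set it apart. The labels state neither sex nor how many mice were used, and a code in the descriptions sets the adult control apart from the other 4 libraries, so that code and the group cannot be told apart.

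Classical monocytes are made in the bone marrow from dividing progenitors, leave it through the chemokine receptor CCR2, and enter injured tissue, where they can become macrophages. In the liver they stand beside Kupffer cells, the resident macrophages. Interferon-stimulated genes and the calcium-binding alarmins S100A8 and S100A9 are among the programmes that blood monocytes switch with their state.

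The adult control held 15 members (exact Poisson 95% interval 8.40 to 24.7). There were 41 at 24 h (29.4 to 55.6), 48 at 48 h (35.4 to 63.6), 30 at 96 h (20.2 to 42.8) and 15 in P14. Counts of barcodes depend on how many cells were loaded, so they were also set against all leukocytes, that is members plus barcodes with at least 3 genes of a neutrophil, plasmacytoid dendritic, T or NK, or B cell list. Members made up 1.47% of leukocytes in the adult control (exact binomial 95% interval 0.825 to 2.41, 1020 leukocytes). The share was 6.66% at 24 h (4.82 to 8.92, 616 leukocytes), 3.96% at 48 h (2.94 to 5.22, 1211), 4.26% at 96 h (2.89 to 6.03, 704) and 6.20% in P14 (3.51 to 10.0, 242). The intervals of all 3 operated libraries and of P14 lay above that of the adult control, and those of the 3 operated libraries overlapped each other. Without doublet-like members, defined below with the division genes, the 48 h share was 2.73% (1.88 to 3.81) and its interval met that of the adult control (1.18%, 0.610 to 2.05). With at least 4 rule genes the 96 h share was 3.02% (1.88 to 4.58) and met that of the adult control (1.08%, 0.541 to 1.93). The libraries do not show whether these cells had arrived from the blood, as the label of recruited monocytes has it, because nothing in them records origin.

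**Figure D1:**
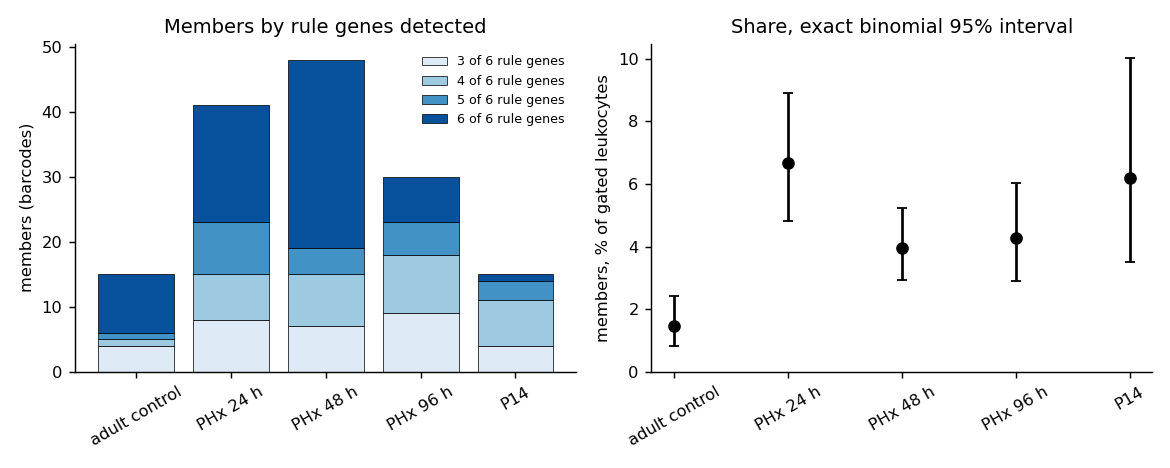
Left, members per library (bars from 0), split by how many of the 6 rule genes had a UMI. Right, members as a percentage of gated leukocytes with exact binomial 95% intervals. The adult control sits lowest at 1.47%, and 24 h highest at 6.66%.

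The rule also fixed how far the members' own marker levels could range. Of all barcodes, 148 had 2 rule genes and so lay just outside, while 32 had 3, 32 had 4, 21 had 5 and 64 had all 6. Barcodes with 2 rule genes held 629, 392, 2395, 96.8 and 1200 CPM of Lyz2, the lysozyme of myeloid cells (CPM, UMIs scaled to a common total without the 13 mitochondrial genes). Barcodes with 3 held 4214, 2587, 804, 212 and 179 CPM of it. No member barcode was shared between any of the libraries.

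The label was checked against 16 classical monocyte markers outside the rule, such as Ly6c2, Lyz2 and Plac8, with every cell thinned to 2000 UMIs. At least 5 of them were found in 13 of 15, 36 of 41, 44 of 48, 23 of 30 and 11 of 15 members. T and NK cells, which should lack them, reached 5 in at most 1.65% of cells in any library. Neutrophils and other myeloid cells were not compared in this way. The 16 markers summed to 4.70%, 2.05%, 2.71%, 1.79% and 1.58% of member UMIs. From 24 h to P14, 8 of 15, 2 of 15, 11 of 15 and 11 of 16 were at least 2-fold below the adult control. Of all genes 14.3%, 11.3%, 14.7% and 18.2% were. Only 1 marker was higher, in P14. The members were also mixed. Lyz2 had no UMI in 2, 1, 2, 5 and 0 of them, and under 20 UMIs, not scaled for depth, in 2, 8, 11, 10 and 4. In the adult control both members without Lyz2 carried at least 5 of 13 T and NK cell genes, and such genes summed to 0.0914% of member UMIs there against 0.00842% to 0.0189% elsewhere. One member in each library carried at least 5 of 13 Kupffer cell genes, and the adult one held all 91 UMIs of Clec4f, a Kupffer cell lectin, found among the members there. Kupffer markers summed to 0.491% of member UMIs in the adult control against 0.0222% to 0.0510% in the other libraries. Neutrophil markers (14 genes, S100a8 and S100a9 among them) summed to 0.0419%, 1.80%, 3.75%, 0.0185% and 0.548%, with 9, 2, 1, 7 and 5 of them at 0. Hepatocyte markers, which also measure free RNA in the droplets, summed to 1.32%, 0.642%, 0.157%, 1.06% and 2.51%. By these markers free RNA was put at 14.7%, 12.4%, 2.68%, 9.53% and 16.5% of member UMIs, so background differed between libraries.

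Some members carried genes of cell division. A member was called mitosis-positive when, thinned to 2000 UMIs, it still held at least 3 of 27 mitosis genes, such as Top2a and Mki67. None of 15 members was positive in the adult control (interval 0 to 21.8%). Positive were 8 of 41 members at 24 h (19.5%, 8.82 to 34.9) and 7 of 48 at 48 h (14.6%, 6.07 to 27.8). The 96 h library had 8 of 30 (26.7%, 12.3 to 45.9), and P14 10 of 15 (66.7%, 38.4 to 88.2). The intervals of the adult control and the operated libraries overlapped, and that of P14 lay apart from the adult control. Of the positive members, 3, 2, 6 and 2, from 24 h to P14, were also doublet-like, that is over 4 times the median depth of members or with at least 3 genes of a neutrophil, T or NK, B or endothelial list. The neutrophil list of that rule has 9 genes and leaves out S100a8 and S100a9. The genes of that rule were counted without thinning, and depth is itself a sign in it, so deep members meet it more readily. At 96 h all 6 doublet-like members were mitosis-positive. The part of depth in the shares without doublet-like members was not tested. Without all doublet-like members the positive ones were 0 of 12, 5 of 35, 5 of 33, 2 of 24 and 8 of 12, or 0%, 14.3%, 15.2%, 8.33% and 66.7%. The exact interval of the fourth share, that of 96 h, was 1.03 to 27.0. T and NK cells measured in the same way were positive in 2.39%, 3.70%, 3.59%, 6.22% and 11.4%. Without thinning, 1 of 15, 21 of 41, 32 of 48, 11 of 30 and 12 of 15 members were positive, or 6.67%, 51.2%, 66.7%, 36.7% and 80%. Thinned to 1000 UMIs, it was 0, 4, 6, 6 and 6 members, or 9.76% at 24 h and 40% in P14.

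Mitosis-positive members also held more UMIs than the others. From 24 h to P14 their medians were 54272, 39063, 35727 and 39100 UMIs, against 12814, 17780, 10933 and 11860 for the other members. They held 47.1%, 25.8%, 50.7% and 79.1% of all member UMIs in those libraries, so that values pooled over members lean towards them. Replication genes (25, such as Mcm5 and Pcna) gave 0, 8, 7, 9 and 7 positive members, of which 0, 6, 4, 7 and 6 were also mitosis-positive.

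**Figure D2:**
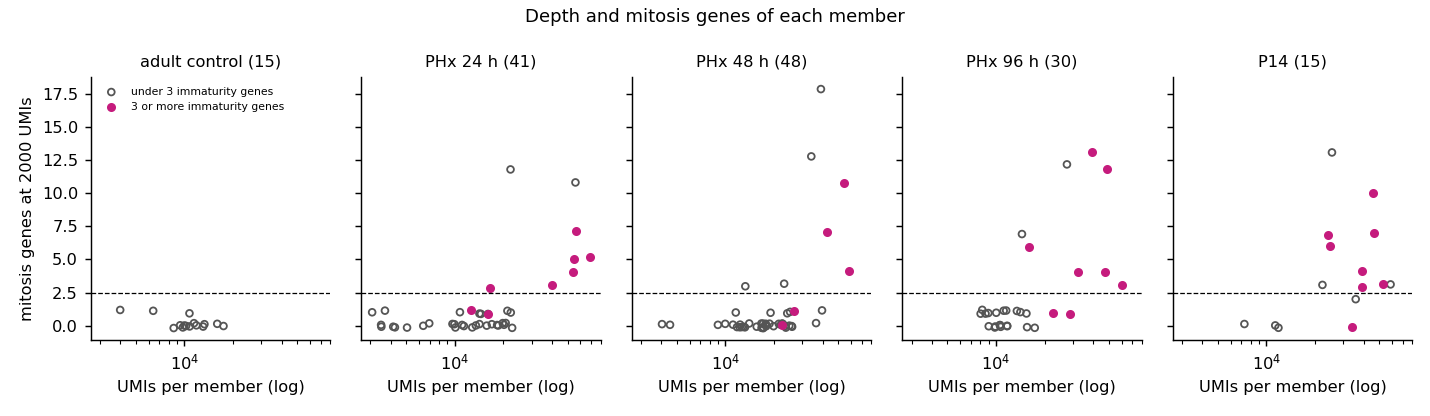
Each point is 1 member, with its UMIs (log axis) against the mitosis genes it held at 2000 UMIs, moved up or down by under 0.5 for display. Filled points held at least 3 bone marrow immaturity genes, and the dashed line marks the limit of 3 mitosis genes. Of the 33 positive members, 22 are filled.

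Genes of bone marrow progenitors went with division. Mpo, Elane, Prtn3 and Ctsg encode proteins packed into granules by granulocyte and monocyte progenitors, and belong to the immaturity list of 13 genes. At equal depth 29 members held at least 3 of its genes, and 22 of them were mitosis-positive, out of 33 mitosis-positive members in all. The list was reached by 0 of 15, 8 of 41, 5 of 48, 8 of 30 and 8 of 15 members, and by at most 1.27% of T and NK cells in any library.

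Mpo, the myeloperoxidase, was at 0, 328, 215, 900 and 2060 CPM, absent from the adult control alone. Its UMIs came from 5 of 41, 8 of 48, 5 of 30 and 9 of 15 members. With 3 counts put in for the 0 of the control, Mpo was 17.2-fold, 11.3-fold, 47.3-fold and 108-fold higher. These are not lowest folds, because few members held Mpo and the control had only 15 members. At 48 h 68.6% of its UMIs lay in 1 member, and without it Mpo was at 71.6 CPM. Elane, neutrophil elastase, was likewise at 0 in the adult control and stood at 390, 234, 629 and 3260 CPM. At 48 h 86.5% of the Elane UMIs lay in 1 member. Prtn3, proteinase 3, was present in more members, 31 of 41 at 24 h and 36 of 48 at 48 h, at 19.0, 1633, 900, 1670 and 6583 CPM. In the mitosis-positive members alone Prtn3 reached 3159, 2629, 2460 and 7531 CPM in the 3 operated libraries and P14.

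In mitosis-positive members Lyz2 stood at 5007, 8896, 2795 and 7303 CPM, from 24 h to P14, and at 28161 CPM over all members of the adult control. Only 6 of the 33 mitosis-positive members had all 6 rule genes, against 58 of the other 116. The rule genes chose all of these, so that count is a description. The mitosis-positive members are named here by their genes alone and given no cell type. Which library they came from does not tell whether such cells were in the tissue or in blood left in it, and this was not tested.

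Because pooled values mixed these cells, a narrow set was formed after the data had been seen: members with 5 or 6 rule genes, negative for mitosis and with under 5 Kupffer cell genes. It held 10, 19, 29, 11 and 1 members, with median depths of 11126, 14195, 19871, 10040 and 11860 UMIs. Of these members 0, 1, 9, 0 and 0 were doublet-like, so the 48 h values in it are the ones most touched. Without them, an alternative chosen after seeing the data, 99 of 1811 genes were at least 2-fold higher at 48 h and 190 lower, against 86 and 197 with them. P14 was left out of comparisons in it. Markers of patrolling monocytes, a second monocyte subset, were no criterion of the narrow set. These 12 genes summed to 0.0583%, 0.0401%, 0.0793% and 0.102% of narrow-set UMIs. Whether the mix of subsets differed between the libraries was not tested.

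Of genes with at least 100 CPM in the higher of 2 libraries, 253 of 1955 (12.9%) were at least 2-fold higher over all members at 24 h than in the adult control, on the log2(CPM + 10) scale, and 279 (14.3%) at least 2-fold lower. At 48 h the counts were 129 of 1868 higher (6.91%) and 212 lower (11.3%), at 96 h 248 of 1954 higher (12.7%) and 287 lower (14.7%), and in P14 309 of 1992 higher (15.5%) and 363 lower (18.2%). In the narrow set 136 of 1826 genes (7.45%) were higher and 200 (11%) lower at 24 h, 86 of 1769 (4.86%) and 197 (11.1%) at 48 h, and 140 of 1888 (7.42%) and 132 (6.99%) at 96 h. Counts of list genes given below are to be read beside these shares. The 4 comparisons share the adult control library, so they are not independent. Scaling by the trimmed mean of M values (TMM) raised the median log2 ratio of all these genes from -0.04, -0.06, -0.03 and -0.02 to 0.33, 0.35, 0.21 and 0.31, with P14 last in these runs and no adult control. It turned the share of higher genes among those past 2-fold from 47.6%, 37.8%, 46.4% and 46.0% to 69.2%, 64.6%, 62.3% and 61.7%, so the balance of higher and lower genes is not settled here. Under TMM 8 list medians over all members turned from below to above 0. They were those of immediate early genes at 24 h (-0.35 to 0.02), of homing, Fc receptor, repair and glucocorticoid genes at 48 h, of MHC class II and S100 genes at 96 h, and of S100 genes in P14. Of 111 genes named by the rule, 7, 11, 3 and 2 turned likewise, with P14 last, and none of them had been 2-fold higher or lower. The narrow set was not rescaled.

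S100a8 and S100a9, whose proteins form calprotectin, a danger signal of myeloid cells, were far higher at 24 h and 48 h than in the adult control. Their promoters, from RefSeq on GRCm38.p6, are shown with that of Ifi211, a gene of the lower group, 250 bases before to 50 after the start of each. Capitals mark matches on either strand to 3 motifs: TTNNGCAA (the C/EBP type), GAGGAAGT (the PU.1 type) and the interferon response type, read as GAAA, any N and N, GAAA.
S100a8 (chr3:90668821-90669120, plus strand): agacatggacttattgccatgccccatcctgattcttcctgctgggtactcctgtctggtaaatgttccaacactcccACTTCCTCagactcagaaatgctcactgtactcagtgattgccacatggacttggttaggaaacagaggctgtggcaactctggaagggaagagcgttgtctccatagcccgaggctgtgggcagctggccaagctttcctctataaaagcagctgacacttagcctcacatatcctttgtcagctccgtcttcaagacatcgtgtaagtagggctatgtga
S100a9 (chr3:90695672-90695971, minus strand): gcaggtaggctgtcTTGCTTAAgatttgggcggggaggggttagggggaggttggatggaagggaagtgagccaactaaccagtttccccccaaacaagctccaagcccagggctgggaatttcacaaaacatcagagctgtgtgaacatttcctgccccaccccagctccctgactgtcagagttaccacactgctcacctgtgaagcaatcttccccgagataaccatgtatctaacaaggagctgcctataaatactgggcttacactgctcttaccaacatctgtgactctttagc
Ifi211 (chr1:173912997-173913296, minus strand): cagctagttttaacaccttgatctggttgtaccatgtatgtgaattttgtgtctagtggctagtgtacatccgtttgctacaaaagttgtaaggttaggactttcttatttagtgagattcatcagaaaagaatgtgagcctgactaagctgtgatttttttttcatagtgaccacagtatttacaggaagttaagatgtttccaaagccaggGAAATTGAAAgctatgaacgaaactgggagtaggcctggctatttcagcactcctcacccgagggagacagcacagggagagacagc
The S100a8 window held 1 PU.1-type match, that of S100a9 1 C/EBP-type match and that of Ifi211 1 interferon response-type match. These 3 were chosen among 16 genes searched, and windows of Irf7, Rnf213, Ifitm1, Vcan, Ctsg, Lyz2 and Chil3 held none of the motifs. The PU.1 type was also found for Prtn3, Elane and Mpo. The interferon type was also found for Slfn5, in 1 of 2 windows of Ifi203, and for Saa3, which was higher at 24 h and held the C/EBP type as well. Of 32851 promoter windows of this length, 10.8% held the first motif, 3.202% the PU.1 type and 3.44% the interferon type. A match is a description of letters, not a binding site.

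S100a8 was at 6.34 (1 UMI), 9565, 17325, 43.1 and 3043 CPM over all members. It was found in 1 of 15, 27 of 41, 34 of 48, 5 of 30 and 12 of 15 members. Single members set much of this, holding 57.5% of its UMIs at 24 h and 79.5% in P14. In the narrow set S100a8 ran from 0 to 96.9 CPM among adult control members and from 0 to 41595 (median 3883) among those of 24 h. At 48 h it ran from 0 to 143792 (median 738), and 96 h members reached 197. Pooled, that was 8.83 CPM, 9487, 17584 and 27.4 CPM. The ratio to the adult control was 1075 at 24 h (interval 193 to 42468) and 1992 at 48 h (357 to 78685), wide because the control had 1 UMI.

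S100a9 followed with 0, 2277, 15595 and 9.15 CPM in the narrow set. With 3 counts put in for the 0 of the control, S100a9 was 86.0-fold higher at 24 h and 589-fold higher at 48 h. At 48 h 1 member held 60.9% of its UMIs and also nearly all of Camp, Ngp and Ltf, granule genes of neutrophils. Without each gene's top member S100a9 was at 6491 CPM at 48 h and S100a8 at 9327. Neutrophil markers stayed in the narrow set. At 24 h 3 of 5 high enough were at least 2-fold higher and 1 was lower. At 48 h 7 of 9 were higher, and the list summed to 3.69% of UMIs against 0.0538% in the adult control. S100a8 and S100a9 are on this list, and at 48 h held 17584 and 15595 CPM. Its counts and sums are therefore not separate from those 2 genes. At 96 h it was none of 3, with 1 lower. In narrow-set members with no UMI of Ly6g, Retnlg, Cxcr2, Ltf, Camp and Ngp, a selection made after seeing the data, S100a8 was at 9869 CPM at 24 h (18 members) and 7370 at 48 h (20 members). S100a9 was at 2368 and 4073 CPM in them. Leaving the 9 doublet-like members out of the narrow set at 48 h also left 20 members, with the same 7370 and 4073 CPM. Both selections held equally many members at the same levels at 24 h too, so the second is not a separate check. Without doublet-like members by any sign, not the 9-gene neutrophil list alone, the log2 ratios over all members were 8.04 for S100a8 and 6.79 for S100a9 at 24 h. At 48 h they were 8.67 and 9.07. That left out 6 members at 24 h and 15 at 48 h. With S100a8 and S100a9 counted, 27 and 38 members had at least 3 of the 14 neutrophil markers. Members with genes of that list thus remained.

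Free RNA held these transcripts too. S100a8 was at 287 and 528 CPM in empty droplets at 24 h and 48 h, and at 887 and 910 CPM in T and NK cells, below the pooled members. In the adult control T and NK cells held 406 CPM of S100a8, above the members' pooled level. Single narrow-set members reached lower: 5 of 19 at 24 h and 15 of 29 at 48 h lay under the S100a8 level of T and NK cells. For S100a9 most did, 11 of 19 at 24 h and 18 of 29 at 48 h, with medians of 173 and 170 CPM against 673 and 484 CPM in T and NK cells. At 2000 UMIs, 14 of 19 narrow-set members at 24 h and 21 of 29 at 48 h had an S100a8 UMI, against 9.47% and 5.58% of T and NK cells. At 96 h 1 of 11 did, against 0.957%, and in the adult control 1 of 10. How much of the members' S100a8 came from neutrophil RNA was not tested further.

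**Figure D3:**
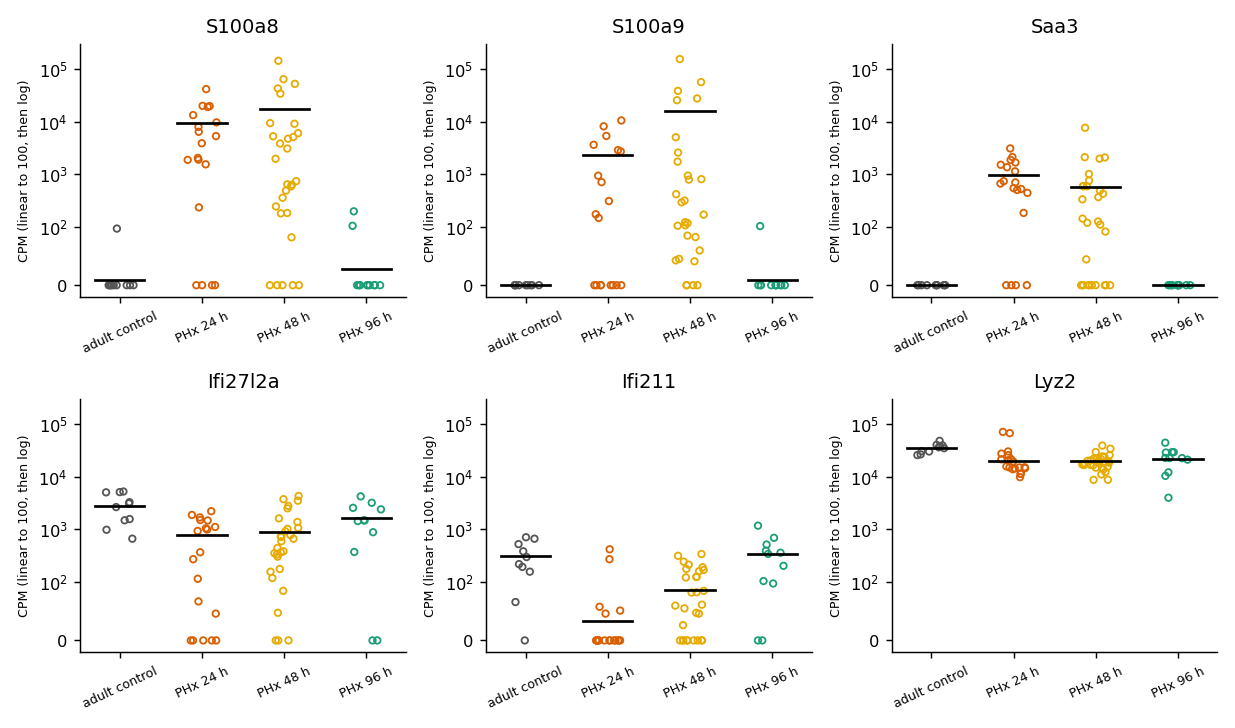
Levels in single narrow-set members (CPM, linear to 100 and logarithmic above), 1 point per member, with the pooled level as a black line. S100a8, S100a9 and Saa3 are raised at 24 h and 48 h and near 0 in the adult control and at 96 h, whereas Ifi27l2a and Ifi211 are lowest at 24 h.

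Saa3, an acute-phase serum amyloid made by myeloid cells, and Ifitm1, a membrane protein of the interferon-induced family, were likewise higher at 24 h and 48 h than in the other adult libraries of the narrow set. Saa3 had 0 UMIs in the adult control and at 96 h, 952 CPM at 24 h and 577 at 48 h, in 15 of 19 and 19 of 29 members. It was at least 35.9-fold and 21.8-fold higher. Free RNA held 69.8 CPM of Saa3 at 24 h and 341 at 48 h, where T and NK cells had 36.2. Ifitm1 was at 0, 207, 589 and 0 CPM, with 60.3% of its 48 h UMIs in 1 member, and at 303 CPM at 48 h without doublet-like members. Over all members Ifitm1 stood at 318 CPM at 96 h, in the members outside the narrow set.

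Of 10 genes on the S100 and alarmin list, 9 were high enough at 24 h in the narrow set and 4 were at least 2-fold higher: S100a8, S100a9, S100a6 and S100a11. At 48 h it was 3 of 9, without S100a11, and none was lower at either time. The list's medians over the 3 operated libraries were 0.51, 0.76 and 0.28, beside -0.05, -0.11 and 0.05 over all genes. S100a6, named after its values were seen, was at 2269, 5627, 5223 and 3704 CPM, and every narrow-set member had it, with 2.48-fold at 24 h and 2.30-fold (2.03 to 2.63) at 48 h. Lcn2, a lipocalin, and Mt1, a metallothionein, were also higher at 24 h, but free RNA held 2504 CPM of Lcn2 and 22047 CPM of Mt1 at 24 h, above the members' 913 and 1571 CPM. With free RNA subtracted, the log2 ratio at 24 h was 3.69 for Lcn2 and -3.59 for Mt1. The subtraction took more Mt1 than the members held, so none was left. The -3.59 is thus a floor set by the pseudocount, the same as in P14, and not a measured fold. The part of free RNA in Lcn2 and Mt1 was not tested.

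Some genes of homing and recognition were higher at 24 h. The medians of the homing list and of the Fc and pattern receptor list were -0.03 and 0.19 there. Vcan, the matrix proteoglycan versican of classical monocytes, was at 177, 620, 289 and 146 CPM in the narrow set, with 81.2% of its 96 h UMIs in 1 member. Cd14, the co-receptor for lipopolysaccharide, was at 79.4, 365, 256 and 82.3 CPM. Cd14 was found in 5 of 10, 18 of 19, 25 of 29 and 4 of 11 narrow-set members, and its ratio was 4.59 (2.31 to 10.4) at 24 h. C5ar1, the receptor for complement C5a, named after its values were seen, was at 26.5, 198, 137 and 45.7 CPM. At 24 h 5 of 16 homing genes were at least 2-fold higher and 1 lower (list median -0.03), beside 7.45% of all genes higher and 11% lower. At 48 h it was 1 of 13 each way, beside 4.86% of all genes higher and 11.1% lower. At 96 h none of 12 was higher and 1 lower, and the list's median was 0.21. Of the Fc and pattern receptor list, 2 of 10 were higher and none lower at 24 h. Its 24 h median was -0.18 without the doublet-like member. Wfdc17, a secreted inhibitor of myeloid activation, was at 883, 2139, 2458 and 1445 CPM, and its log2 ratio at 24 h went from 1.27 to 0.96 without doublet-like members.

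Interferon-stimulated genes were among those lower at 24 h and 48 h. Of 31 listed, 12 were high enough at 24 h in the narrow set and 11 were at least 2-fold lower, none higher, with a median log2 ratio of -1.41. At 48 h 6 of 12 were lower and the median was -0.96, and without doublet-like members 3 of 12 and -0.85. At 96 h 0 of 16 were lower and 2 higher, and the median was 0.50. Over all members at 96 h, 7 of 10 were lower with a median of -1.31, so the direction at 96 h depends on which members are counted. At equal depth at least 3 interferon genes were found in 73.3%, 22.0%, 62.5%, 56.7% and 20% of members. Thinned to 1000 UMIs, the shares were 60%, 9.76%, 22.9%, 33.3% and 13.3%, so the place of 48 h beside the adult control depends on the depth chosen, while 24 h was the lowest of the adult libraries at both. Among T and NK cells it was 46.5%, 30.04%, 37.6% and 35.9% in the adult libraries, and among neutrophil barcodes 59.2%, 31.7%, 46.7% and 65.8%, both lowest at 24 h. Among plasmacytoid dendritic barcodes it was 55.7%, 59.2%, 78.2% and 67.3%.

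Ifi27l2a, an interferon-induced mitochondrial protein, was at 2842 (interval 2540 to 3171), 774 (668 to 892), 890 (815 to 970) and 1646 (1414 to 1905) CPM in the narrow set. It was 3.67-fold lower at 24 h and 1.73-fold lower at 96 h, with no overlap of intervals. Single members overlapped, with 667 to 5259 CPM of Ifi27l2a in the adult control and 0 to 2223 at 24 h.

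Ifi211, a DNA-sensing protein of the HIN-200 family, was at 309 (215 to 430), 32.4 (14.0 to 63.9), 85.9 (63.7 to 113) and 348 (246 to 477) CPM. It had at most 6.62 CPM in free RNA and in T and NK cells of any library. Ifi203, of the same family, was at 388, 40.5, 99.6 and 457 CPM in the narrow set. Irf7, the transcription factor that drives type I interferon genes, was at 203, 44.6, 92.7 and 219 CPM (log2 ratio at 48 h -1.05, and -0.99 without doublet-like members), where free RNA held 34.2 CPM of Irf7 in the adult control. The adult control and 96 h did not differ beyond counting error for Ifi211, Ifi203 and Irf7.

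Xaf1, an interferon-induced partner of apoptosis inhibitors, was at 61.8 CPM in the adult control and 174 CPM at 96 h in the narrow set.

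**Figure D4:**
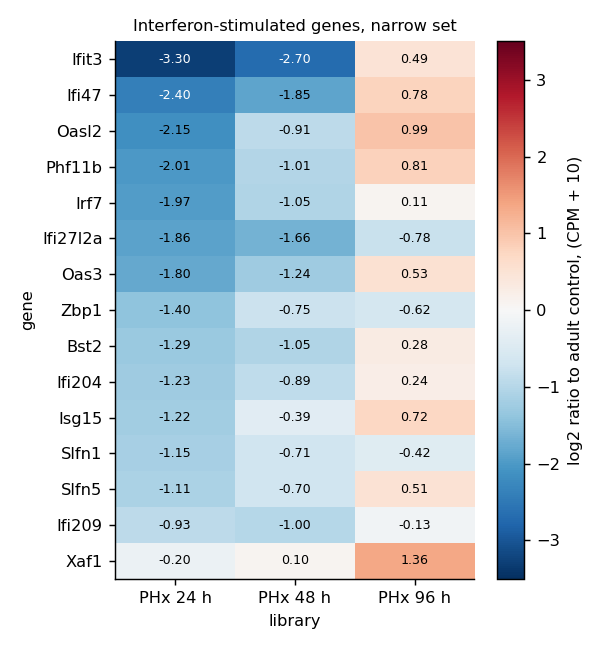
Log2 ratio to the adult control in the narrow set for 15 of the 16 interferon-stimulated genes with at least 100 CPM in any of the 4 adult libraries. All 15 are below 0 at 24 h, 14 at 48 h, and at 96 h 4 are below 0 and 11 above.

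Members with at least 3 MHC class II and antigen presentation genes at equal depth numbered 4 of 15, 6 of 41, 10 of 48, 11 of 30 and 2 of 15, with overlapping intervals, against at most 3.39% of T and NK cells. Without thinning the shares were 66.7%, 63.4%, 77.1%, 80% and 73.3%. Over all members 5 of 7 genes of the list were at least 2-fold lower at 24 h (median -1.39), 1 of 7 at 48 h (-0.45) and 1 of 7 at 96 h (-0.09), and none was higher. Of all genes 14.3%, 11.3% and 14.7% were lower in these comparisons, so 1 of 7 lay near that share. The control member with most H2-Aa held 43.9% to 62.9% of the control UMIs of H2-Aa, H2-Ab1, H2-Eb1 and Cd74. Without it 3 of 7 were lower at 24 h (-0.76), 1 was higher and none lower at 48 h (-0.02), and 2 were higher and 1 lower at 96 h (0.72). In the narrow set 4 of 6 were lower at 24 h (-4.88) and at 48 h (-4.55), and 3 of 6 at 96 h (-0.89). A single control member carried that difference, with all control UMIs of H2-Aa, H2-Ab1 and H2-Eb1 in the narrow set and 97.6% of those of Cd74. Without it, a choice made after seeing the data, H2-Aa, H2-Ab1 and H2-Eb1 were at 0 in the control and 2 genes of the list were high enough at 24 h and at 48 h, neither of them 2-fold lower. At 96 h the UMIs of H2-Aa, H2-Ab1 and H2-Eb1 again lay in 1 of 11 members, so no direction of the list is read in the narrow set. H2-Aa, an MHC class II chain, had UMIs in 3, 6, 7, 9 and 2 members, and in 1, 0, 0 and 1 members of the adult narrow sets. Conventional dendritic cell genes were reached at equal depth by 0, 0, 3, 1 and 1 members. Without thinning, at least 3 of these 14 genes were found in 2, 3, 5, 10 and 1 members. At least 5 were found in 0, 0, 3, 5 and 1, so members with dendritic cell genes were most frequent at 96 h. H2-K1, an MHC class I chain, was at 1386, 490, 517 and 1079 CPM in the narrow set, but free RNA held 2048, 857, 596 and 609 CPM and T and NK cells more, and the part of background in it was not tested.

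For transcription factors of the lineage the counts depended on which members were used. Over all members 4 of 14 were at least 2-fold lower at 24 h (median -0.74), 1 of 15 at 48 h (-0.66) and 4 of 14 at 96 h (-0.69), and none was higher. Of all genes 14.3%, 11.3% and 14.7% were lower in these comparisons, so the 48 h count did not exceed that share. In the narrow set 7 of 13 were at least 2-fold lower and 2 higher at 24 h (median -1.04), 2 of 13 lower and none higher at 48 h (-0.40), and none of 14 lower and 2 higher at 96 h (-0.04). Irf8, which commits progenitors to monocytes, was at 335, 101, 106 and 174 CPM. Klf4, needed for monocyte maturation, was at 247, 32.4, 139 and 375 CPM. Klf2, a regulator of trafficking and quiescence, was at 1324, 551, 754 and 1161 CPM. Spi1, encoding PU.1, was at 812, 490, 611 and 448 CPM. For Klf4 and Klf2 the 96 h level was closer to the adult control than the 24 h level was.

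Lysosome genes lay closer to the adult control in the narrow set. The median of the lysosome list was -0.71, -0.36 and -1.07 over all members of the 3 operated libraries, and -0.02, -0.11 and -0.16 in the narrow set, where the first was -0.29 without its 1 doublet-like member. Lyz2 was below the adult control in all 3 operated libraries, at 35266, 19761, 19743 and 21757 CPM. Single members ran from 26001 to 48456 CPM of Lyz2 in the adult control and from 9880 to 71656 at 24 h, and so overlapped. Of the glycolysis and hypoxia list, 5 of 10 genes were at least 2-fold higher over all members at 24 h, none lower, with a median of 0.94. In the narrow set 2 of 10 were higher, with a median of 0.52, and 1 of 10 without the doublet-like member.

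**Figure D5:**
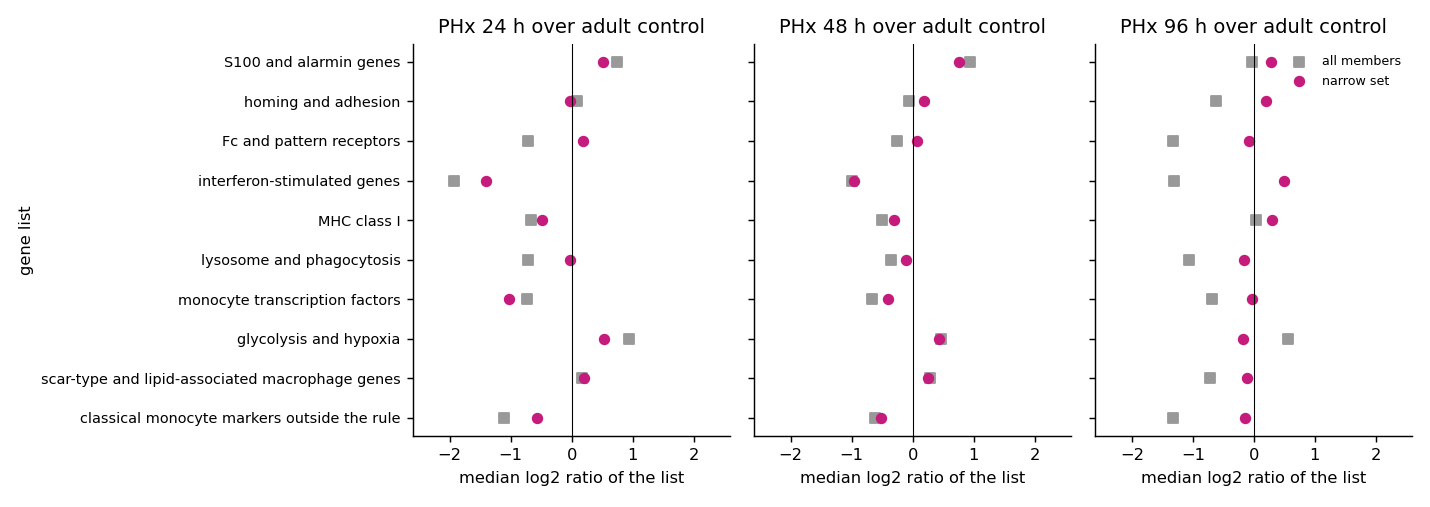
Median log2 ratio to the adult control of 10 gene lists at each time after PHx, over all members (squares) and in the narrow set (circles). Interferon-stimulated genes lie left of 0 for both sets at 24 h and 48 h, and at 96 h at -1.31 and 0.50.

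Secreted factors that are known to prime hepatocytes after PHx were scarcely captured. Tnf had 0, 6, 3, 0 and 0 UMIs over all members of the adult control, 24 h, 48 h, 96 h and P14. Il6 had 1 UMI, at 24 h, and Hgf, the hepatocyte growth factor, had 1, 6, 2, 3 and 1. Ccl2, the ligand of CCR2, was at 19.0, 128, 24.5, 7.49 and 6.66 CPM, with 42.1% of its 24 h UMIs in 1 member. Il1b was at 82.5, 47.1, 32.7, 14.98 and 0 CPM. Spp1, the osteopontin of scar-associated macrophages, was at 546 CPM at 24 h and 6.34 in the adult control, but 63.3% of its 24 h UMIs came from 1 member. At this depth no order of libraries can be read for Tnf, Il6 or Hgf.

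At 96 h the narrow set differed from the adult control in other genes. Crip1, a small zinc-binding protein, was at 1103, 1985, 1824 and 3914 CPM, at 96 h 3.55-fold higher (2.90 to 4.37), with UMIs in 11 of 11 members. T and NK cells held 597 and 940 CPM of Crip1 in the adult control and at 96 h. Mmp8, a collagenase stored by myeloid cells, was lowest at 96 h with 36.6 CPM against 291, 587 and 374, the last being 274 without doublet-like members. Ms4a6d, of the family that includes the rule gene Ms4a6c, was at 477, 466, 263 and 210 CPM. Rgs2, a brake on G protein signals, was at 203, 243, 347 and 558 CPM.

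The rule genes chose the members, so their levels are a description. Chil3, a chitinase-like secreted protein, was at 1801, 5246, 4119 and 2350 CPM in the narrow set. Ccr2 was at 1660, 1098, 927 and 1216 CPM, and F13a1, a clotting factor subunit of monocytes, at 953, 980, 665 and 219 CPM. Over all members Chil3 was at 1294, 2488, 2839, 595 and 75.5 CPM with P14 last, and was found in 9 of 15, 31 of 41, 33 of 48, 14 of 30 and 3 of 15 members. In P14 Ms4a6c was found in 15 of 15 members and Csf1r in 14 of 15. All 15 P14 members carried Xist, which silences the second X chromosome in females, at 257 to 1779 CPM, and no member of the other 4 libraries had a UMI of it. The labels give no sex, so this difference and the age cannot be told apart in comparisons with P14.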

How the data were processed

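Liver cells of 5 groups, 1 library each, were measured by droplet single-cell RNA sequencing. The authors deposited unfiltered UMI counts per gene and barcode, 31053 genes by 6794880 barcodes in each library. The submitters' processing notes name bcl2fastq 2.17.1.14, Cell Ranger, Seurat 3.1 and mm10, and per the file headers the matrix software was version 3.0.2. Library totals ran from 80927744 to 136110607 UMIs. The median depth of members was 10757 to 33693 UMIs.

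Members were chosen by the 6-gene rule, UMIs were summed per library, and CPM was taken without mitochondrial genes. Log2 ratios to the adult control used a pseudocount of 10 CPM. Genes with at least 100 CPM in the higher library were considered and 2-fold was the limit. Intervals are exact Poisson or binomial at 95%. Free RNA was the sum of barcodes ranked 20001 to 60000 by UMIs. Shares of positive cells used 2000 UMIs drawn per cell. Doublets were not removed in the values as reported; members with signs of them were left out as an alternative.

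Genes were named by this rule: per comparison, the 8 highest and 8 lowest with at least 200 CPM, UMIs in 5 members, 3 times the free RNA and intervals that do not overlap, plus up to 4 per role list, the rule genes and class markers. Other names were chosen after their values were seen. The members and lists were chosen with earlier results of these data known. The ratio intervals were tested on simulated data drawn from the counting model that they assume. That test cannot show how they do where single members hold most UMIs of a gene. Python 3.11.15, numpy 2.4.6, scipy 1.17.1, pandas 2.3.3, R 4.3.3 and edgeR 4.0.16 (for TMM factors alone) were used. Promoters were matched by symbol for 16 of 17 genes asked. One gene of the interferon list counts in that list's totals and is not reported here by name.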

Additional observations from a re-analysis of the deposited data

How the results depend on the processing

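No paired analysis was possible because each group has 1 library. Depth and 15 members in the adult control limit every ratio. The values that follow are log2 ratios to the adult control for genes and lists, and counts of genes past 2-fold. A gene or list is given where its reported ratio over all members was past 1 or -1 and had the other sign. Of the gene values over all settings, 45 changed sign in this way. Another 783 moved beyond both the interval of the ratio and a 1.5-fold change, and 6615 did neither. The cause of each change was not tested.

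With TMM scaling, 257 genes were higher at 48 h, and 165, 141 and 186 were lower at 24 h, 48 h and 96 h. With at least 4 rule genes, Ccl5 was at 0.29 and Fcgr4 at 0.79 at 48 h, Fcgr4 at 0.37 at 24 h, Pglyrp1 at 0.074 at 96 h and Slc40a1 at 0.31 in P14. There 170 genes were lower at 96 h and 3 role lists had a median past 1 or -1, in either direction, as in all counts of role lists here. At 300 CPM or more, 88, 38, 72 and 90 genes were higher and 89, 69, 98 and 131 lower, with P14 last and the 3 operated libraries before it, and with 3 role lists past 1 or -1 at 24 h. With no filter on level the counts were 1103, 881, 1305 and 1373 higher and 1111, 1048, 1040 and 1370 lower, the cytokine list's median was 0.14 at 48 h, and 5 role lists were past 1 or -1 at 96 h. With a pseudocount of 50, 73 and 162 genes were higher at 48 h and 96 h, and 177 and 180 lower at 24 h and 96 h. With free RNA subtracted, Fabp5 was at -1.52 in P14, Mt1 at -3.59 at 24 h and -0.28 at 48 h, and 131 genes were lower at 48 h, with 50.4% of called genes higher there. The -3.59 is the floor set by the pseudocount, as no Mt1 was left at 24 h. With the mean of single members, Sdc3 was at 0.48 and Slc40a1 at 0.22 in P14, 122 genes were higher and 154 lower at 96 h, and 1 and 2 role lists were past 1 or -1 at 48 h and 96 h.

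Without mitosis-positive members, an alternative chosen after seeing the data, Cd74 was at 0.92, Sdc3 at 0.13, Tppp3 at 0.52 and Ube2c at -1.18 in P14, and Ube2c at -0.083 at 96 h. There 150, 81 and 107 genes were higher at 24 h, 48 h and 96 h, 179 and 126 lower at 24 h and 96 h, and 2, 2 and 1 role lists past 1 or -1. In the narrow set at 96 h, also chosen after seeing the data, Cd14 was at 0.045, Chil3 at 0.38, Clec4a3 at 0.47, Csf1r at 0.050, Ctsb at 0.27, Gngt2 at 1.11, Ifi211 at 0.16, Irf7 at 0.11, Rras at 0.60, Sirpb1c at 0.19, Slc40a1 at 0.024, Slfn5 at 0.51, Ube2c at -0.53 and the interferon list at 0.50. Chil3, Clec4a3 and Csf1r are rule genes, so their ratios are a description only. At 24 h in it Fcgr4 was at 0.82, Hmgb2 at -0.046 and Lgmn at 0.17, and at 48 h Fcgr4 at 0.78. It gave 136 and 140 higher genes at 24 h and 96 h, 132 lower at 96 h, and 2 and 0 role lists past 1 or -1 at 48 h and 96 h. Without doublet-like members, Ccl5 was at 0.20, Fcgr4 at 0.21, Lgmn at 0.088, Sdc3 at 0.86 and Slc40a1 at 1.63 at 48 h, Ccl5 at 0.43 and Lcn2 at -0.14 at 96 h, and Sdc3 at 0.39 and Slc40a1 at 1.97 in P14. There 136 genes were higher and 138 lower at 96 h, 3 and 1 role lists were past 1 or -1 at 48 h and 96 h, and members made up 2.73% of leukocytes at 48 h, with an interval (1.88 to 3.81) that met that of the adult control. Without Kupffer-like members Fcgr4 was at 0.43 at 48 h and Thbs1 at -1.39 at 96 h. Without each gene's top member they were at 0.32 and -0.79.

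Without thinning, MHC class II genes were reached by 66.7%, 63.4%, 77.1%, 80% and 73.3% of members, from the adult control to P14. Mitosis genes were reached by 51.2% and 66.7% at 24 h and 48 h, and replication genes by 33.3%, 63.4%, 60.4% and 80% in the adult control, at 24 h, 48 h and in P14. With 2 genes as the limit, MHC class II genes were reached by 43.9%, 47.9% and 60% at 24 h, 48 h and 96 h. Without doublet-like members, by a rule not set at equal depth and also chosen after seeing the data, mitosis genes were reached by 8.33% at 96 h.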
